A study of Mus musculus with 30 samples.

Results

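The integrated stress response, the program by which cells slow protein synthesis and raise amino acid supply under stress, was followed through 36 genes picked by symbol out of the 21652 genes in the deposited tables. They comprise 9 regulators and feedback genes, 5 effectors downstream of the transcription factor ATF4, 9 enzymes of asparagine, serine and one-carbon metabolism, 4 amino acid transporters and 9 cytosolic tRNA synthetases, and all 36 were found under their current symbols. The 30 libraries were polyA RNA of inguinal white fat (iWAT) and brown fat (BAT) from male C57BL/6J mice aged 7 to 8 weeks, with no genetic change. Each tissue had 5 libraries per group, and the groups were kept at 22 °C or moved to 6 °C for 6 h or for 24 h. The mice shared cages of 5 in a room given as 24 ± 2 °C, and the labels name no individual animals, so that p-values measure only the spread between these libraries.

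In the integrated stress response, kinases that sense misfolded protein, amino acid shortage and other strains phosphorylate the initiation factor eIF2. Bulk protein synthesis then slows while the Atf4 mRNA is translated more, and ATF4 switches on genes for amino acid synthesis, amino acid import and tRNA charging. Because ATF4 is set largely at translation, its mRNA level is not a measure of its protein. In adipose tissue the pathway is known above all from mitochondrial stress in thermogenic fat, where it drives secreted hormones such as FGF21 and GDF15.

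ATF4 binds with C/EBP partners to a composite element, searched here as TGATGNAA on both strands of RefSeq promoter windows (GRCm38.p6) that run from 250 bases before to 50 bases after each annotated start. Of the 30 members with a window, 10 held at least 1 match, which is 33.3%, against 4.51% of the 27025 genes with a window. Several members are in the list because they are textbook ATF4 targets, so the share is a description and no test was made. Eif4ebp1, Aldh1l2, Slc7a5, Cars1, Nars1 and Wars1 had no entry. The stretches below are those of members that the results turn on, written 5′ to 3′ on the gene's strand with the match in capitals. The Asns stretch is chr6:7693210-7693269 (minus strand), that of Slc7a11 chr3:50443646-50443705 (minus strand), that of Gars1 chr6:55037941-55038000 (plus strand), that of Aars1 chr8:111033704-111033763 (plus strand), that of Chac1 chr2:119351023-119351082 (plus strand) and that of Nupr1 chr7:126625547-126625606 (minus strand).
Asns: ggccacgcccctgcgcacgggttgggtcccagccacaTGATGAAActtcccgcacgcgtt
Slc7a11: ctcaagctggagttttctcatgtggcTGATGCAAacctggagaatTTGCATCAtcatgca
Gars1: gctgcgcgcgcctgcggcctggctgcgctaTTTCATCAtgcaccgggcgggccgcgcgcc
Aars1: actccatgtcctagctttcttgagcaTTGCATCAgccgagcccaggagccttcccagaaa
Chac1: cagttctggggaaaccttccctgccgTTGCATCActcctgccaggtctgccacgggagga
Nupr1: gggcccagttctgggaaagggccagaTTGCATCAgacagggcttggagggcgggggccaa

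In Asns the match began 23 bases before the start and lay on the gene's own strand. Slc7a11 held a pair, beginning 66 and 47 bases before the start on opposite strands. The matches of Gars1, Aars1, Chac1 and Nupr1 began 30, 112, 193 and 110 bases before the start, all on the opposite strand, and Pck2 had one beginning 103 bases before it. In Trib3, Iars1 and Yars1 the match lay just past the annotated start, and Aars1 had a second one there. Stretches of 24 bases hold these matches, at chr2:152344031-152344054 (minus strand) for Trib3, chr13:49682129-49682152 (plus strand) for Iars1 and chr4:129189898-129189921 (plus strand) for Yars1.
Trib3: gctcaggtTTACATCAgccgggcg
Iars1: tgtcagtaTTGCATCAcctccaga
Yars1: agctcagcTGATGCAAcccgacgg

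**Figure D1:**
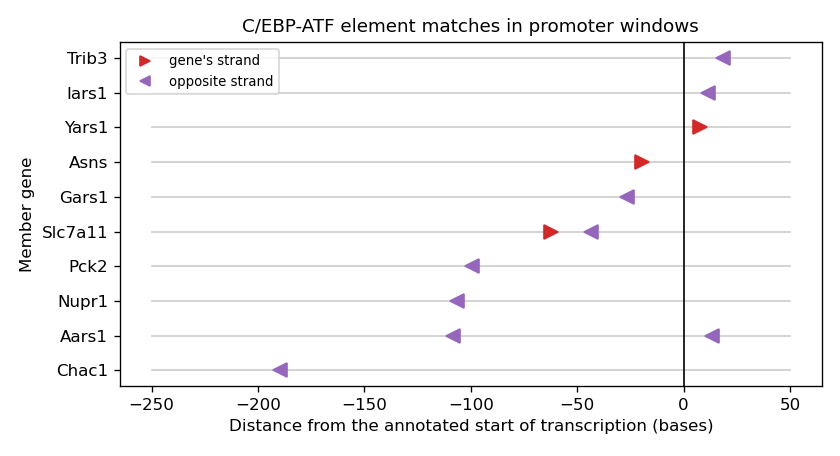
Position of each match to the C/EBP-ATF element (x axis, bases from the annotated start of transcription, marked at 0) in the promoter windows of the 10 members that held one (y axis). Arrowheads give the strand of the match, and 7 of the 10 members have a match upstream of the start.

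Library totals were 25.3 to 41.0 M (M, 1000000 counts assigned to genes). Levels are given as CPM, counts per 1000000 on TMM-scaled library sizes, and in that scale the values of replicates 1 to 5 are listed in order. Differences are log2 fold changes with an approximate standard error from edgeR's quasi-likelihood fit, and a gene is said to rise or fall where its Benjamini-Hochberg adjusted p over all genes tested was under 0.05. Of the members, 36 were tested in iWAT and 34 in BAT, where Aldh1l2 and Slc7a11 had too few counts, and the share of all tested genes that passed is given beside the first count of members in each comparison. In bulk tissue, fewer cells of a type and less RNA per cell cannot be told apart. Adipocyte markers summed over 8 genes stood at 16630 to 33180 CPM over all groups. In iWAT they were 20560 to 26540 CPM at 22 °C and 26700 to 33180 CPM at 6 h. The summed brown adipocyte markers were 176 to 1327 CPM in iWAT at 22 °C and 13740 CPM or more in every BAT group. Skeletal muscle markers (10 genes) summed to 3440 CPM in iWAT 22 °C replicate 2 against at most 95.3 CPM in the cold iWAT libraries, and ranged from 53.6 to 8394 CPM over the BAT libraries.

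Per transcript length, the most abundant members in iWAT at 22 °C were Phgdh, which opens serine synthesis, at 84.3 ± 22.3 FPKM (SD, n = 5) and Eif4ebp1, a repressor of cap-dependent translation, at 70.4 ± 8.29 FPKM. Atf4 (43.1 ± 8.48 FPKM) and its relative Atf5 (43 ± 6.13 FPKM) came next and did not differ beyond their spread. In BAT at 22 °C the order was led by the glycyl-tRNA synthetase Gars1 (55.7 ± 1.71 FPKM) and Atf5 (52.9 ± 6.42 FPKM), whose ranges overlapped. At the low end, the cystine transporter Slc7a11 stood at 0.00592 ± 0.00309 FPKM in iWAT and 0.00923 ± 0.00838 FPKM in BAT, and the mitochondrial folate enzyme Mthfd2 at 1.07 ± 0.169 and 1.1 ± 0.265 FPKM.

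**Figure D2:**
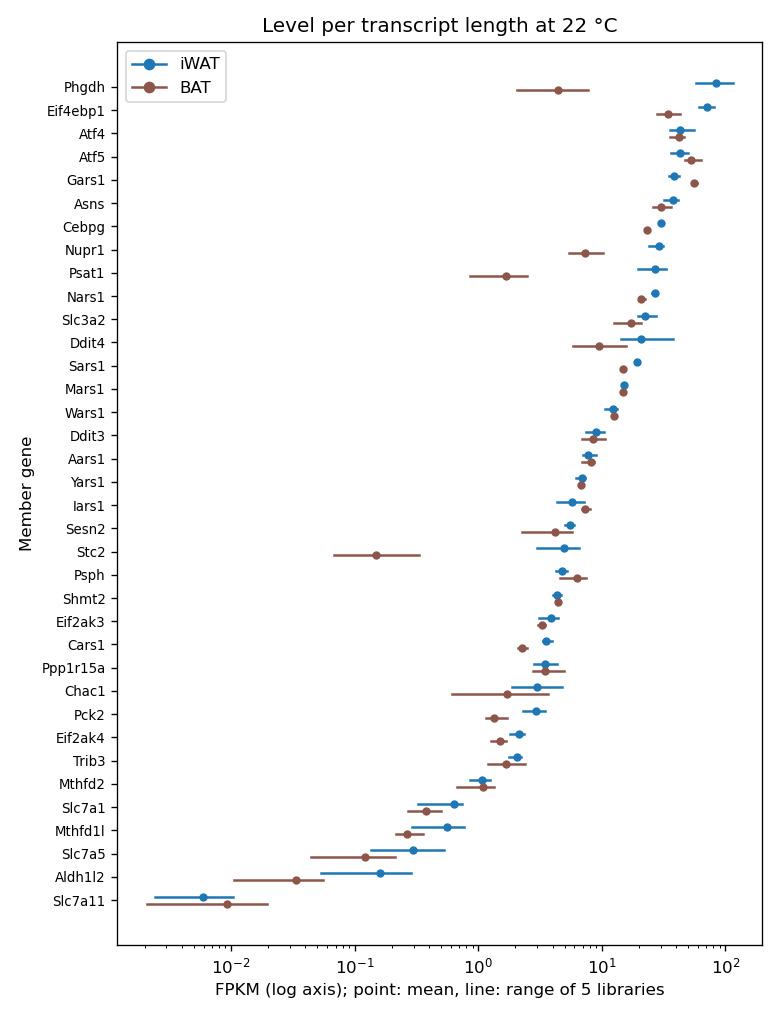
Level per transcript length of the 36 members at 22 °C (x axis, deposited FPKM on a log axis; y axis, members in the order of their iWAT mean). Points are means and lines the range over the 5 libraries of a group, leaving out values of 0. The BAT mean lies furthest to the left of the iWAT mean for Stc2, Phgdh, Psat1, Aldh1l2 and Nupr1, in that order of ratio.

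BAT held far less mRNA for the first steps of serine synthesis than iWAT at 22 °C. Phgdh was lower, with a log2 difference of -3.65 ± 0.31 (BAT minus iWAT, edgeR adjusted p = 4.82e-11), and so was Psat1, the next enzyme, at -3.41 ± 0.27 (adjusted p = 1.25e-11). Phgdh stood at 183, 138, 140.4, 121 and 215 CPM in the iWAT libraries and at 12, 9.78, 13.8, 22 and 6.02 CPM in the BAT libraries. The groups did not overlap, and Psph, the last enzyme of serine synthesis, went the other way at 0.99 ± 0.18 (adjusted p = 2.31e-05). The secreted glycoprotein Stc2 was lower in BAT too, at -4.45 ± 0.36 (adjusted p = 1.54e-11), and Nupr1, a small stress-induced nuclear protein, at -1.39 ± 0.18 (adjusted p = 1.02e-07). Markers of other cell types differed between these groups too. Summed progenitor and fibroblast markers were 2425 to 4372 CPM in iWAT and 694 to 1119 CPM in BAT, with 7 of 8 lower in BAT and a median log2 difference of -1.78. Summed macrophage markers were 302 to 788 CPM and 135 to 231 CPM, with 8 of 8 lower (median -1.88), and their part in the difference was not tested. Aldh1l2, Pck2 and Eif4ebp1 were also lower in BAT, and the last lost its call in 4 of 10 fits that left out 1 library (adjusted p 0.0547 to 0.0881).

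In all, 16 members were called higher in BAT, where 32.4% of all tested genes were, and 7 lower, where 34.5% were. The 16 included Atf4 (0.57 ± 0.16), Atf5 (0.90 ± 0.17), Ddit3 (0.52 ± 0.16), Gars1 (1.13 ± 0.10), Iars1 (0.97 ± 0.11) and 8 of the 9 synthetases in all. The higher calls depended on the scale. With FPKM on the log2(FPKM + 1) scale the median of all genes was -0.34 in place of -0.04 on counts, and 3 members were called higher and 20 lower. There Atf4 (-0.01), Ddit3 (-0.07), Cebpg (-0.37), Eif2ak3 (-0.18), Ppp1r15a (-0.01), Mars1 (-0.04), Nars1 (-0.34), Sars1 (-0.36) and Yars1 (-0.02) changed sign. Relative to the median of all genes, 23 of 36 members lay above it on both scales. Gars1, Iars1 and Psph were the members called higher in BAT on both scales, and Phgdh, Psat1, Stc2, Nupr1, Aldh1l2, Pck2 and Eif4ebp1 were lower on both.

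In cold iWAT, tRNA synthetases, asparagine synthetase, the transporter subunit Slc3a2 and the mitochondrial folate enzyme Mthfd2 rose, together with the regulators Atf5 and Ppp1r15a. After 6 h, 14 of 36 members rose, against 12.9% of all tested genes, and 1 fell, against 10.1%. After 24 h, 17 rose, against 12.8%, and 3 fell, against 10.1%. The median log2 change of the members was 0.29 at 6 h and 0.41 at 24 h, beside -0.03 and -0.04 for all tested genes. Between 24 h and 6 h no member was called, where 0.0% of all genes rose and 0.00731% fell by edgeR (1 gene, with 1351 at an unadjusted p under 0.05), and DESeq2 called Mthfd2 alone among the members (1.20, adjusted p = 0.00327).

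**Figure D3:**
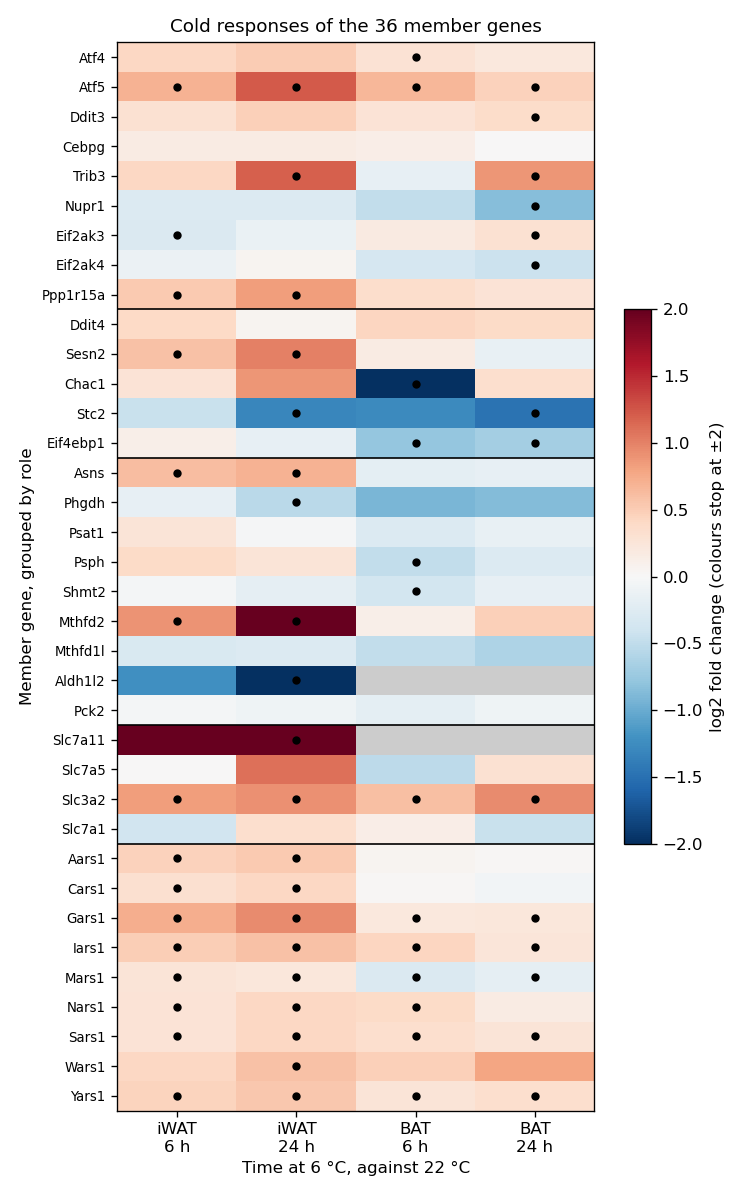
Log2 fold change of each of the 36 members (rows, grouped by role and separated by lines) after 6 h and 24 h at 6 °C against 22 °C in iWAT and BAT (columns). Red is higher and blue lower in the cold, dots mark members with an adjusted p under 0.05, and grey cells were not tested. The 9 tRNA synthetases in the lowest block are all red in iWAT, with 9 dots at 24 h.

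Among the regulators in iWAT, Atf5, a transcription factor that is itself an output of the pathway, had the largest change at both times. It stood at 72.7, 57.5, 55.4, 84 and 60.1 CPM at 22 °C. It stood at 103, 89.3, 80.4, 125 and 146 CPM after 6 h and at 162, 161, 117, 148 and 191 CPM after 24 h. The groups at 22 °C and 24 h did not overlap, and those at 22 °C and 6 h overlapped slightly. The log2 changes were 0.70 ± 0.16 (adjusted p = 0.0102) and 1.22 ± 0.17 (adjusted p = 0.00047).

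Atf4, the central transcription factor, was at 64.5, 80.7, 73.1, 111 and 63.3 CPM in iWAT at 22 °C. After 6 h it was at 84.2, 109, 83.5, 115 and 142 CPM and after 24 h at 109.7, 108, 77.6, 131 and 137 CPM. The groups overlapped, since replicate 4 at 22 °C was above 3 of the 5 libraries at 6 h. The changes of 0.42 ± 0.18 and 0.51 ± 0.18 were not called (adjusted p = 0.0974 and 0.0541), although DESeq2 (adjusted p = 0.0283) and 4 other settings called the second. Ddit3, which encodes the stress factor CHOP, was at 10.8, 12.3, 10.9, 15 and 9.64 CPM at 22 °C and at 19.1, 12.7, 13.3, 16.3 and 21.6 CPM after 24 h. It too overlapped between groups, with 0.30 ± 0.17 at 6 h (12.3, 16.1, 11.1, 14.6 and 19.4 CPM) and 0.48 ± 0.17 at 24 h (adjusted p = 0.208 and 0.0526).

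Trib3 encodes a pseudokinase that restrains ATF4. It was at 3.4, 3.43, 2.89, 3.54 and 3.44 CPM in iWAT at 22 °C. After 6 h it was at 4.28, 4.35, 4.22, 3.98 and 5.75 CPM, and after 24 h at 4.01, 3.89, 6.24, 9.59 and 14.8 CPM. The warm and cold libraries did not overlap at either time, and at 24 h replicate 5 was over 3 times as high as replicate 2. The change was called at 24 h (1.19 ± 0.29, adjusted p = 0.0095) and not at 6 h (0.41 ± 0.29, adjusted p = 0.31). Ppp1r15a, the phosphatase subunit that removes phosphate from eIF2, rose by 0.52 ± 0.18 at 6 h and 0.83 ± 0.18 at 24 h. Its call at 6 h was lost in 7 of 10 fits that left out 1 library (adjusted p 0.0529 to 0.121). The endoplasmic reticulum kinase gene Eif2ak3 fell by 0.29 at 6 h, a call lost in 8 of 10 such fits (adjusted p 0.0573 to 0.101). Eif2ak4 (the kinase of amino acid shortage), Nupr1 and the C/EBP partner Cebpg were not called in iWAT, with changes between -0.28 and 0.17.

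Of the effectors, Sesn2, an inhibitor of the nutrient kinase mTORC1, rose by 0.58 ± 0.15 at 6 h and 1.00 ± 0.15 at 24 h (adjusted p = 0.0145 and 0.000656). Stc2 was at 20.4, 20.6, 17.9, 13.1 and 25.7 CPM at 22 °C and at 10.1, 4.9, 8.99, 7.6 and 8.38 CPM after 24 h in iWAT. The groups did not overlap, and the change was -1.31 ± 0.26 (adjusted p = 0.00266), while at 6 h (13.4, 13.5, 25.6, 9.25 and 11.6 CPM) it was -0.44 ± 0.25 and not called. Chac1, which degrades glutathione, was at 2.58 to 5.65 CPM at 22 °C and at 2.94 to 11.4 CPM at 24 h in iWAT, with a change of 0.88 ± 0.32 that was not called (adjusted p = 0.0601). Ddit4, another mTORC1 inhibitor, and Eif4ebp1 were not called at either time (0.40 and 0.12 at 6 h, 0.06 and -0.16 at 24 h).

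The metabolic enzymes divided. Asns, which makes asparagine, was at 65, 76.3, 81.2, 94.7 and 77.3 CPM in iWAT at 22 °C. It was at 158, 133, 106, 92.6 and 126 CPM after 6 h and at 139.9, 129, 144, 97.3 and 133 CPM after 24 h. All cold libraries but replicate 4 at 6 h were above every library at 22 °C. The changes were 0.62 ± 0.14 (adjusted p = 0.00825) and 0.69 ± 0.14 (adjusted p = 0.00334).

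Mthfd2, which oxidises one-carbon units on folate in mitochondria, was at 2.87, 2.38, 3.33, 2.5 and 3.17 CPM at 22 °C. It was at 4.15, 5.42, 2.84, 8.57 and 6.17 CPM after 6 h and at 10.6, 8.88, 9.98, 14 and 18.9 CPM after 24 h. Every library at 24 h was above every library of the other iWAT groups. The rise was 2.11 ± 0.26 at 24 h, a fold of 4.31 (adjusted p = 0.000387). At 6 h it was 0.90 ± 0.26 (adjusted p = 0.0232), a call lost in 4 of 10 fits that left out 1 library, namely replicates 1 and 2 at 22 °C and replicates 4 and 5 at 6 h (adjusted p 0.0534 to 0.0651).

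Aldh1l2, another mitochondrial folate enzyme, went down on low counts. Its counts were 85, 35, 53, 12 and 30 at 22 °C, 14, 9, 27, 12 and 4 after 6 h and 10, 6, 12, 7 and 6 after 24 h. In CPM these were 0.34 to 1.6, 0.0992 to 0.745 and 0.14 to 0.288, with no overlap between 22 °C and 24 h. The change was -2.17 ± 0.50 at 24 h (adjusted p = 0.00641) and -1.23 ± 0.47 at 6 h (adjusted p = 0.0681). Phgdh fell by 0.54 at 24 h, a call lost in 6 of 10 fits that left out 1 library (adjusted p 0.0718 to 0.111). Psat1, Psph, Shmt2 (which splits serine into glycine), Mthfd1l and Pck2 were not called in iWAT, with changes between -0.31 and 0.38.

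Among the transporters, Slc3a2, the shared heavy chain of several amino acid exchangers, was at 52.2, 58.7, 57.2, 61.8 and 73 CPM in iWAT at 22 °C. It was at 129.5, 92, 102, 76.3 and 149 CPM after 6 h and at 131, 103, 100.1, 110.0 and 135 CPM after 24 h. Every cold library was above every library at 22 °C, with rises of 0.84 ± 0.16 (adjusted p = 0.00352) and 0.91 ± 0.16 (adjusted p = 0.00143). Slc7a11, the cystine carrier that pairs with Slc3a2, had counts of 4, 4, 3, 1 and 2 at 22 °C. Its counts were 0, 23, 3, 11 and 10 after 6 h and 24, 31, 13, 13 and 8 after 24 h. The fitted rise at 24 h was 2.75 ± 0.73 (adjusted p = 0.0137), on few counts in every library. Slc7a11 passed the count filter only through cold libraries, so its call is weak support for a rise. On log2(FPKM + 1) the change was 0.04 and not called (adjusted p = 0.223), but at such low FPKM adding 1 holds any change near 0. With a pseudocount of 0.1 it was 0.35 and not called (limma adjusted p = 0.0995). Slc7a5, which imports large neutral amino acids, and Slc7a1, which imports arginine and lysine, were not called (1.10 and 0.34 at 24 h).

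The cytosolic tRNA synthetases, which load amino acids onto tRNAs, were the group with the most calls in iWAT. At 6 h 8 of 9 rose, all but the tryptophan enzyme Wars1 (adjusted p = 0.0503), and at 24 h all 9 rose. The range was 0.26 to 0.72 at 6 h and 0.23 to 0.95 at 24 h, with medians of 0.41 and 0.52. Gars1, the glycine enzyme, was at 81.7, 86.2, 97.8, 110.1 and 85 CPM at 22 °C. It was at 138, 151, 122, 182 and 178 CPM after 6 h and at 199.7, 182, 169.7, 165 and 186 CPM after 24 h. No cold library reached down to the 22 °C range, and the rises were 0.72 ± 0.11 (adjusted p = 0.00158) and 0.95 ± 0.11 (adjusted p = 0.000313). The smallest rise at 24 h was that of the methionine enzyme Mars1 (0.23 ± 0.06). At 6 h the calls of Cars1, Iars1 and Nars1 were lost in 5, 3 and 7 of 10 fits that left out 1 library (adjusted p 0.0519 to 0.0948 over these fits), and at 24 h none of the 9 was lost in this way.

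Markers of other cell types changed in cold iWAT as well. Summed progenitor and fibroblast markers (8 genes, none at 0 in every library) were 2425 to 4372 CPM at 22 °C, 1612 to 2684 CPM at 6 h and 1440 to 2294 CPM at 24 h, and brown adipocyte markers were 176 to 1327 CPM, 818 to 6256 CPM and 3338 to 5538 CPM in the same order. Summed macrophage markers were 302 to 788 CPM, 275 to 554 CPM and 344 to 552 CPM, and endothelial markers 347 to 611 CPM, 314 to 421 CPM and 352 to 446 CPM. Summed adipocyte markers were 20560 to 26540 CPM, 26700 to 33180 CPM and 24430 to 29620 CPM, with no overlap between 22 °C and 6 h. With the mean log2 level of the progenitor, macrophage and endothelial markers as a covariate, 0 members were called at 6 h, and 5 rose at 24 h (Atf5, Sesn2, Mthfd2, Slc3a2 and Gars1). The share of all genes called with this covariate is not given here, so these counts have no background to be set against. The fitted changes of the members called without the covariate kept their direction, and several kept their size. At 6 h Slc3a2 was 0.83 in place of 0.84 (adjusted p = 0.264), Atf5 0.67 in place of 0.70, Asns 0.55 in place of 0.62, Ppp1r15a 0.62 in place of 0.52 and Sesn2 0.88 in place of 0.58. At 24 h Trib3 was 1.44 in place of 1.19 (adjusted p = 0.0616), Ppp1r15a 0.90 in place of 0.83 and Stc2 -1.19 in place of -1.31. Others came out smaller, such as Mthfd2 (0.51 in place of 0.90) and Iars1 (0.26 in place of 0.49) at 6 h, and Slc7a11 (1.71 in place of 2.75) at 24 h. Without the 22 °C library that was high in muscle transcripts (replicate 2), 10 members were called at 6 h and 21 at 24 h. When replicate 1 at 22 °C, or replicate 4 or 5 at 6 h, was left out, 9 were called at 6 h in place of 15. On log2(FPKM + 1), where the median of all genes was -0.15 at 6 h, 4 members rose and 4 fell at 6 h, and 14 rose and 5 fell at 24 h. All 9 synthetases lay above 0 at both times on both scales. At 6 h the members that rose on both were Atf5, Asns, Slc3a2 and Gars1. The part of these cell types in the changes was not tested beyond that covariate, whose markers themselves were lower in the cold.

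**Figure D4:**
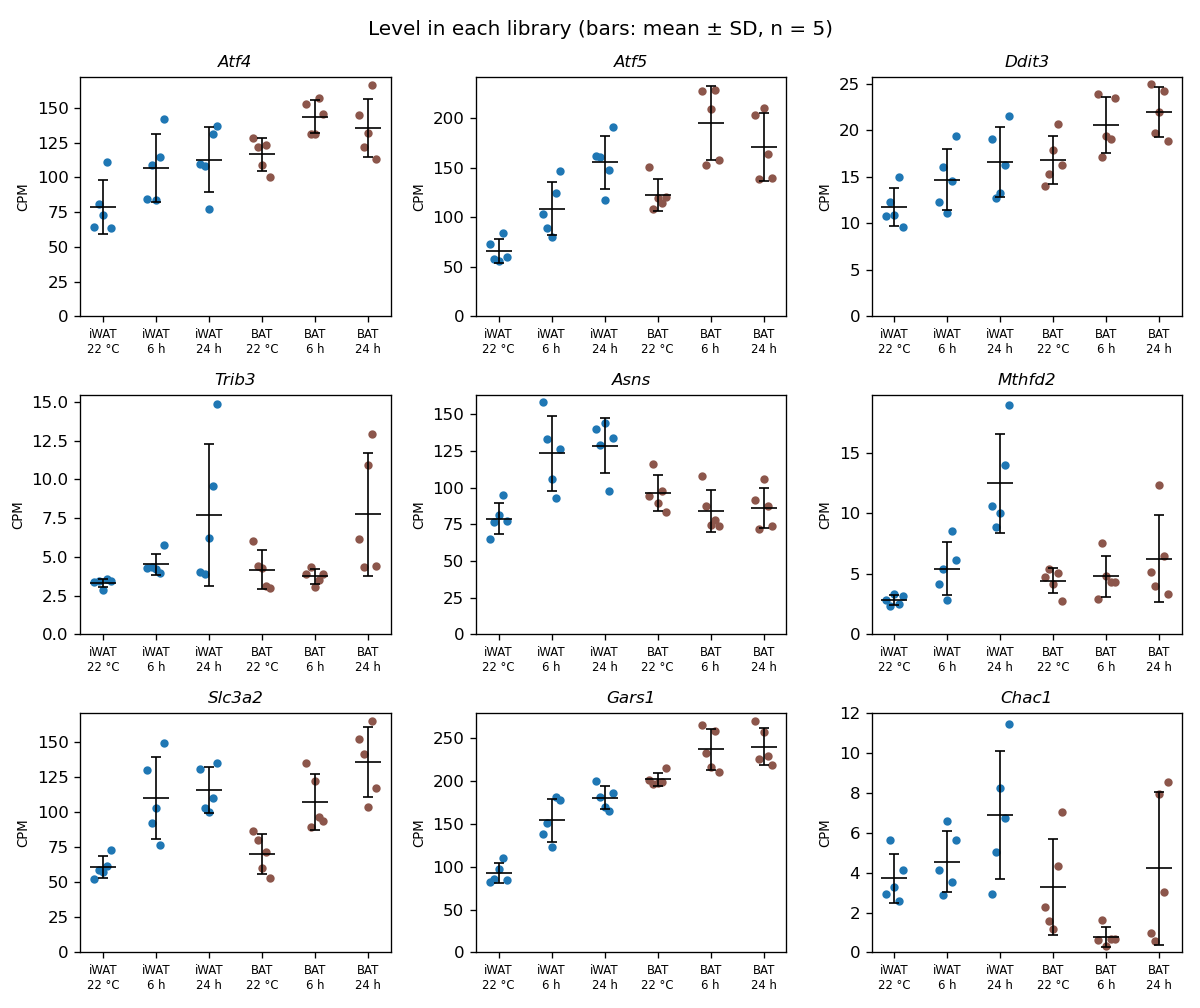
Level of 9 members in each library (y axis, TMM-scaled CPM from 0) by group (x axis; blue iWAT, brown BAT). Points are libraries in replicate order and bars mean ± SD (n = 5). Mthfd2 at 24 h in iWAT, at 8.88 to 18.9 CPM, lies above all libraries of the other iWAT groups, while the 3 groups of Asns in BAT overlap.

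In BAT more members rose than fell, and the share that fell was near that of all genes. After 6 h, 8 of 34 tested members rose, against 12.5% of all genes, and 5 fell, against 10.2%. After 24 h, 9 rose, against 12.8%, and 5 fell, against 10.4%. The median change of the members was 0.08 and 0.10, beside -0.01 for all genes at both times. Between 6 h and 24 h, 2 members rose (6.6% of all genes) and 1 fell (6.45%).

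Slc3a2 rose in BAT as well. It was at 86.5, 80.3, 59.7, 71.2 and 52.6 CPM at 22 °C. It was at 135, 88.9, 122, 96.5 and 93.3 CPM after 6 h and at 152, 141, 104, 165 and 117 CPM after 24 h. The cold libraries did not overlap those at 22 °C, with 0.60 ± 0.16 (adjusted p = 0.0115) and 0.94 ± 0.16 (adjusted p = 0.000418). With skeletal muscle markers as a covariate, which summed to 314.5 to 8394 CPM at 22 °C and 84.7 to 1480 CPM at 6 h, the 6 h change was 0.45 (adjusted p = 0.0576).

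Atf5 was at 150.5, 109, 119.8, 114 and 120.4 CPM in BAT at 22 °C. After 6 h it was at 228, 153, 209, 229 and 158 CPM and after 24 h at 204, 138, 210.4, 164 and 140.0 CPM. At 6 h every library was above 22 °C, and at 24 h replicates 2 and 5 fell within the 22 °C range. The changes were 0.66 ± 0.14 (adjusted p = 0.00302) and 0.46 ± 0.14 (adjusted p = 0.0244), the second lost in 5 of 10 fits that left out 1 library (adjusted p 0.0526 to 0.0691).

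Atf4 in BAT was at 128, 122, 109, 123 and 99.96 CPM at 22 °C, at 153, 131, 131, 157 and 146 CPM after 6 h and at 145, 122, 132, 167 and 113 CPM after 24 h. The 6 h libraries were all above those at 22 °C. The change of 0.29 ± 0.10 was near the threshold (adjusted p = 0.0491) and its call was lost in 9 of 10 fits that left out 1 library (adjusted p 0.0533 to 0.12). At 24 h it was 0.21 ± 0.10 and not called. Ddit3 was at 14.1, 15.3, 17.9, 20.7 and 16.3 CPM, 24, 17.1, 19.4, 19 and 23.4 CPM and 25, 19.7, 22, 24.3 and 18.9 CPM in the same order of groups. It rose at 24 h by 0.36 ± 0.12 (adjusted p = 0.037), lost in 7 of 10 such fits (adjusted p 0.0523 to 0.0943), and was not called at 6 h (0.27 ± 0.12).

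Trib3 in BAT was at 6.06, 4.43, 4.32, 3.09 and 3 CPM at 22 °C. It was at 3.92, 4.37, 3.04, 3.53 and 3.89 CPM after 6 h and at 6.13, 4.33, 10.9, 12.9 and 4.4 CPM after 24 h. Replicates 3 and 4 at 24 h stood far above the rest. The change was 0.88 ± 0.29 at 24 h (adjusted p = 0.0369), a call lost in 6 of 10 fits that left out 1 library (adjusted p 0.0572 to 0.125). Between 24 h and 6 h it rose by 1.05 ± 0.29 (adjusted p = 0.0256), lost in 5 of 10 (adjusted p 0.051 to 0.0806), and at 6 h it was at -0.17 ± 0.29.

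Nupr1 fell in BAT. It was at 19.6, 18.8, 22.3, 29.4 and 16.1 CPM at 22 °C and at 12, 9.31, 14.9, 13.4 and 10.03 CPM after 24 h, with no overlap. The change was -0.85 ± 0.20 at 24 h (adjusted p = 0.00486) and -0.49 ± 0.20 at 6 h (9.2 to 20.4 CPM, adjusted p = 0.0789). Of the eIF2 kinases, Eif2ak3 rose at 24 h by 0.31 ± 0.09, lost without 22 °C replicate 4 (adjusted p = 0.058) or 24 h replicate 2 (adjusted p = 0.0619), and Eif2ak4 fell by 0.43 (adjusted p = 0.0156). Cebpg and Ppp1r15a were not called in BAT.

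Eif4ebp1 was lower in cold BAT at both times. It was at 89, 80.2, 88.6, 107 and 72.4 CPM at 22 °C. It was at 76.4, 41.2, 40.4, 54.9 and 45.2 CPM after 6 h and at 72.7, 39.6, 50.8, 52 and 61.2 CPM after 24 h. Replicate 1 of each cold group lay within the 22 °C range and the other 4 below it. The changes were -0.77 ± 0.17 (adjusted p = 0.00406) and -0.68 ± 0.17 (adjusted p = 0.00913).

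Chac1 in BAT fell at 6 h and rose between 6 h and 24 h. It was at 2.28, 1.6, 1.17, 4.34 and 7.04 CPM at 22 °C. It was at 0.6, 1.65, 0.31, 0.683 and 0.692 CPM after 6 h and at 0.955, 0.559, 7.96, 3.03 and 8.56 CPM after 24 h. Replicate 2 at 6 h lay within the 22 °C range, and the 24 h libraries ran from below 1 CPM to above 8 CPM. The changes were -2.07 ± 0.70 at 6 h (adjusted p = 0.0427) and 2.40 ± 0.70 between 6 h and 24 h (adjusted p = 0.0322), lost in 7 and 6 of 10 fits that left out 1 library (adjusted p 0.051 to 0.128). Skeletal muscle markers differed between these libraries, and with them as a covariate the 6 h change was -0.74 (adjusted p = 0.289). Stc2, at 0.447, 0.411, 0.788, 1.97 and 0.817 CPM at 22 °C and 0.277, 0.0466, 0.436, 0.545 and 0.275 CPM after 24 h, changed by -1.47 ± 0.51 (adjusted p = 0.0465) and lost the call in 7 of 10 such fits (adjusted p 0.057 to 0.182). Its counts were 11, 9, 25, 49 and 24 at 22 °C and 9, 1, 11, 16 and 8 at 24 h. Sesn2 and Ddit4 were not called in BAT.

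Among the enzymes, Asns was not called in BAT. It was at 94, 116, 89.5, 97.4 and 83.2 CPM at 22 °C. It was at 108, 87.5, 74.8, 77.6 and 73.7 CPM after 6 h and at 91.2, 71.7, 106, 87.6 and 73.9 CPM after 24 h. The groups overlapped, with -0.20 ± 0.12 and -0.17 ± 0.12 (adjusted p = 0.258 and 0.332). Mthfd2 was at 4.75, 5.39, 4.19, 5.1 and 2.76 CPM, 2.96, 7.56, 4.83, 4.3 and 4.36 CPM and 5.15, 3.96, 12.3, 6.44 and 3.33 CPM in the same order. It overlapped between groups, with 0.11 ± 0.32 and 0.48 ± 0.32 (adjusted p = 0.852 and 0.308).

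Psph was at 37.8, 23.1, 32.4, 32.8 and 31.5 CPM in BAT at 22 °C and at 30.5, 17.7, 22.4, 21.8 and 21 CPM after 6 h. Replicate 1 was the highest of both groups, and the groups overlapped. Psph fell at 6 h by 0.49 (adjusted p = 0.0142) and Shmt2 by 0.36 (adjusted p = 0.00767), and neither was called at 24 h (-0.28 and -0.17; Psph at 22.9 to 29.3 CPM). Phgdh, Psat1, Mthfd1l and Pck2 were below 0 at both times in BAT and not called, down to -0.92 ± 0.35 for Phgdh at 6 h (adjusted p = 0.0704). Slc7a5 and Slc7a1 were not called. Aldh1l2 and Slc7a11 had at most 12 counts in any BAT library and were not tested.

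Of the 9 synthetases in BAT, 8 lay above 0 at 6 h and 7 at 24 h, and Mars1 was the only one called lower. Gars1, Iars1, Nars1, Sars1 and Yars1 rose at 6 h, by 0.21 to 0.43, and Mars1 fell by 0.29 (adjusted p = 0.00294). At 24 h Gars1, Iars1, Sars1 and Yars1 rose, by 0.23 to 0.33, and Mars1 fell by 0.18 (adjusted p = 0.0441). Aars1 and Cars1 lay between -0.06 and 0.05 and were not called. Gars1 was at 201, 197, 197, 199 and 215 CPM at 22 °C, at 265, 233, 216, 258 and 211 CPM after 6 h and at 269.6, 226, 257, 229 and 219 CPM after 24 h. Its libraries at 24 h were all above 22 °C, by 0.23 ± 0.07 (adjusted p = 0.0312), but the calls at 6 h and 24 h were lost in 7 and 6 of 10 fits that left out 1 library (adjusted p 0.0604 to 0.112). At 24 h Mars1, Iars1 and Sars1 lost theirs in 8, 3 and 3 of 10 (adjusted p 0.0545 to 0.11), and between 6 h and 24 h Nars1 fell by 0.22, lost in 4 of 10 (adjusted p 0.062 to 0.0767). Wars1 was not called at either time, although every cold library was above those at 22 °C (48.5 to 53.1 CPM). At 6 h it was 0.47, with libraries at 58.0 to 90.7 CPM. At 24 h it was 0.79 ± 0.28, with replicate 4 at 190.7 CPM against 54.0 to 67.3 CPM in the other libraries of that group. The fit takes 1 estimate of spread from the 3 BAT groups together.

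**Figure D5:**
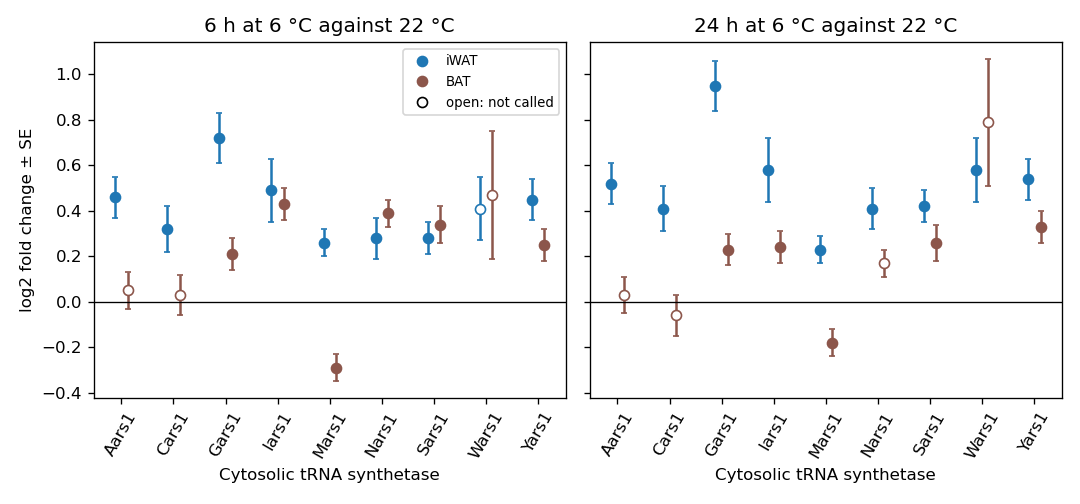
Log2 fold change ± SE of the 9 cytosolic tRNA synthetases after 6 h (left) and 24 h (right) at 6 °C against 22 °C, in iWAT (blue) and BAT (brown). Filled points passed an adjusted p of 0.05. Mars1 is above 0 in iWAT and below 0 in BAT at both times, and Aars1 and Cars1 sit near 0 in BAT.

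The calls in BAT at 24 h were sensitive to single libraries. Without 22 °C replicate 3 or 4 each, 7 members were called in place of 14, and without 24 h replicate 1 or 3, 9 were. Those at 6 h were 11 or 12 in every such fit, beside 13. With the skeletal muscle covariate 5 rose and 5 fell at 6 h, where Slc3a2, Atf4, Chac1 and Gars1 were the members no longer called and Chac1 changed most in size. With it 5 rose and 4 fell at 24 h, and with the stromal covariate 5 rose and 3 fell. The shares of all genes called with these covariates are not given here, so these counts too lack a background.

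The cold response itself was tested for a difference between tissues in a fit of all 30 libraries. As BAT minus iWAT, 1 member had a positive difference at 6 h (3.38% of all genes) and 6 a negative one (6.03%). At 24 h, 1 was positive (2.96%) and 9 negative (4.85%). Negative values mean that BAT rose less or fell more than iWAT, or fell where iWAT rose. Asns gave -0.83 ± 0.20 at 6 h (edgeR adjusted p = 0.00847) and -0.86 ± 0.20 at 24 h (adjusted p = 0.0078). It kept its call in every fit that left out 1 library and in every alternative run on this comparison. The marker covariates were not run on this comparison. Within iWAT, the stromal covariate left Asns at 0.55 at 6 h (adjusted p = 0.401) and 0.64 at 24 h (adjusted p = 0.0914). Mars1 gave -0.57 ± 0.08 and -0.41 ± 0.08 (adjusted p = 0.000105 and 0.00297), and Gars1 -0.51 ± 0.14 and -0.72 ± 0.14 (adjusted p = 0.0203 and 0.00226). At 24 h Mthfd2 gave -1.63 ± 0.43 (adjusted p = 0.0189) and Sesn2 -1.15 ± 0.26 (adjusted p = 0.00709).

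Eif2ak3 was the member with a positive difference, at 0.46 ± 0.12 and 0.44 ± 0.12 (adjusted p = 0.0187 and 0.0262). At 6 h it was called lower in iWAT and was not called in BAT. Its difference at 24 h lost the call without iWAT 22 °C replicate 1 (adjusted p = 0.062), iWAT 24 h replicate 2 (adjusted p = 0.0502) or BAT 24 h replicate 2 (adjusted p = 0.0652). Eif4ebp1 and Psph differed at 6 h (-0.90 ± 0.25 and -0.87 ± 0.25), when both fell in BAT and were not called in iWAT. Aars1 differed at both times (-0.42 ± 0.12 and -0.49 ± 0.12) and Cars1 at 24 h (-0.48 ± 0.13). Psph and Aars1 at 6 h each lost the call in 5 of 20 fits that left out 1 library (adjusted p 0.0512 to 0.0601). Atf5 at 24 h (-0.76 ± 0.23) lost it in 13 of 20 (adjusted p 0.0501 to 0.0802). Slc7a11 at 24 h (-4.66 ± 1.25) rested on BAT counts of 1, 6, 10, 2 and 1 at 22 °C and 0, 1, 3, 0 and 1 at 24 h, and lost it without BAT 22 °C replicate 3 (adjusted p = 0.0654). It was not tested within BAT and passed the count filter only through cold iWAT libraries, where it is high. Its call is therefore no support for a difference between tissues. Atf4, Ddit3, Trib3 and Slc3a2 showed no called difference between tissues (-0.30 ± 0.22, -0.12 ± 0.22, -0.31 ± 0.43 and 0.02 ± 0.23 at 24 h).

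On log2(FPKM + 1) the median of all genes in this comparison was 0.13 at 6 h and 0.10 at 24 h, in place of -0.02 and -0.01. Below that median were 26 of 36 members at 6 h and 28 at 24 h, against 29 and 29 on counts. Aars1 was then -0.19 at 6 h (adjusted p = 0.211) and -0.30 at 24 h (adjusted p = 0.064). At 24 h Cars1 was -0.24 (adjusted p = 0.0822) and Slc7a11 -0.05 (adjusted p = 0.162). For Slc7a11 the added 1 outweighs its FPKM, so that value cannot check the difference.

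The libraries of a group differed together in part. In BAT at 24 h, replicate 3 held the highest value of 16 members and replicate 2 the lowest of 14. In iWAT at 24 h, replicate 5 held the highest value of 15 members, among them Atf5, Trib3, Mthfd2, Chac1 and Atf4. In iWAT at 22 °C, replicate 4 held both the highest value of 15 and the lowest of 12.

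Fgf21 and Gdf15, secreted hormones that the pathway can drive, rose from low levels, and whether it drove them here was not tested. Fgf21 was at 0.0203 to 0.305 CPM in iWAT at 22 °C and 0.513 to 8.67 CPM after 24 h (4.48 ± 0.98, adjusted p = 0.00508). In BAT it rose by 1.84 ± 0.50 at 24 h. Gdf15 was at 0.0203 to 0.209 CPM and 0.358 to 6.44 CPM in the same iWAT groups (4.64 ± 0.85, adjusted p = 0.00193), and in BAT it rose by 2.01 ± 0.61 at 6 h and 2.90 ± 0.60 at 24 h.

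Other lists of the pathway were read beside the members, each described by counts, some with a median. Against these counts, the shares of all tested genes that rose were 12.9% at 6 h and 12.8% at 24 h in iWAT and 12.5% and 12.8% in BAT, and 10.1% to 10.4% fell, so that a list with about 1 gene in 8 rising stands near the background. A list of 13 other genes held cytosolic synthetases and the scaffold genes Aimp1 and Aimp2 of the synthetase complex. Of these 13, 4 rose in iWAT at each time, with medians of 0.16 and 0.17, led by the phenylalanine subunit Farsb (0.53 ± 0.08 and 0.70 ± 0.08). In BAT 2 rose at each time, which is near the background. Of 17 mitochondrial synthetases, 5 and 4 rose in iWAT. In BAT 1 rose and 4 fell at 6 h and 3 rose and 3 fell at 24 h, and Cars2 rose in both tissues (BAT 1.98 ± 0.13 at 6 h, iWAT 1.15 ± 0.24 at 24 h). A list of 15 genes held other eIF2 kinases, eIF2 and eIF2B subunits, and also Ppp1r15b, Gcn1, Impact, Oma1 and Dele1. Of these 15, 6 rose in iWAT at each time, among them Eif2b3 (0.53 ± 0.10 at 6 h), Eif2b4 (0.56 ± 0.12 at 24 h) and Eif2s2. In BAT 3 rose and 2 fell at 6 h, the latter being the mitochondrial relay genes Oma1 (-0.49 ± 0.09) and Dele1 (-0.32 ± 0.06), which carry mitochondrial stress to eIF2, and 5 rose at 24 h. The response of Oma1 and Dele1 differed between tissues at 6 h (-0.62 ± 0.14 and -0.44 ± 0.09).

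Of 10 mitochondrial protein quality control genes, 8 rose at 6 h and 7 at 24 h in iWAT, with medians of 0.55 and 0.60, led at 24 h by the chaperone Hspa9 (0.99 ± 0.19) and its partner Dnaja3 (0.90 ± 0.15). In BAT 3 rose at 6 h, and 2 rose and 1 fell at 24 h. The difference in response, BAT minus iWAT, was called negative for 2 and 5 of them, against 6.03% and 4.85% of all genes. Of 16 genes of the XBP1 and ATF6 branch, which restores folding in the endoplasmic reticulum, 3 rose in iWAT at 6 h and 4 rose and 2 fell at 24 h. In BAT 5 rose and 3 fell at 6 h, and 8 rose and 4 fell at 24 h. Sdf2l1 was at 2.21 ± 0.24 at 24 h and Manf at 1.21 ± 0.10 at 6 h. The 24 h response of Sdf2l1 was higher in BAT, with a difference of 2.60 ± 0.36, and in iWAT it was -0.39 ± 0.25 and not called. That of Dnajb9, a co-chaperone, was lower in BAT (-1.02 ± 0.22). Dnajb9 rose in iWAT by 1.08 ± 0.18 at 24 h, and Xbp1 fell in BAT by 0.68 at 6 h.

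Of 20 further enzymes of one-carbon and amino acid synthesis, 7 rose and 3 fell at 6 h in iWAT, and 6 rose and 4 fell at 24 h. In BAT 4 rose and 2 fell at 6 h, the falls near the background, and 5 rose and 3 fell at 24 h. Got1, the cytosolic aspartate aminotransferase, rose in all 4 comparisons (1.72 ± 0.39 and 2.87 ± 0.40 in iWAT, 1.49 ± 0.15 and 1.67 ± 0.15 in BAT). Shmt1, the cytosolic counterpart of Shmt2, rose in iWAT (1.53 ± 0.28 at 24 h), Pycr1 of proline synthesis fell there (-1.23 ± 0.39), and Cth, which makes cysteine, rose in BAT (1.20 ± 0.23 at 24 h). Of 20 other transporters, 5 rose and 3 fell, then 5 rose and 1 fell, in iWAT, and of the 19 tested in BAT 6 rose and 2 fell, then 6 rose and 1 fell. Slc38a4 fell in iWAT (-2.15 ± 0.56 at 24 h). In BAT the leading rise was that of Slc7a8 (1.93 ± 0.46 at 6 h), a light chain that pairs with Slc3a2, and its response differed between tissues (2.01 ± 0.55). Of 8 ATF4 partner factors and secreted outputs, 0 passed in iWAT at 6 h (edgeR, with Fgf21 at an unadjusted p of 0.0142) and 3 rose at 24 h, and in BAT 3 and 5 rose, with Atf3 at 1.24 ± 0.31 at 24 h.

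Members whose genes overlap another gene in the annotation are uncertain, since the counting is not stated to use strand. Ddit3 and Mars1 overlap each other, and reads in the overlap cannot be told apart. Atf5 overlaps Nup62 and Il4i1b, Psph overlaps Cct6a, Aars1 overlaps Ddx19b, Shmt2 overlaps Ndufa4l2, Ppp1r15a overlaps Tulp2 and Wars1 overlaps Wdr25.

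The cold responses of members with and without a match to the C/EBP-ATF element were set side by side. In iWAT at 24 h, 7 of the 10 with a match rose and 7 of the 20 without did, against 12.8% of all tested genes, and the medians were 0.64 and 0.24. In BAT at 24 h 4 of 9 and 5 of 20 rose, against 12.8% again, with medians of 0.23 and -0.07, and at 6 h the medians were -0.17 and 0.13. Chac1 and Nupr1 have a match and were called lower in BAT than at 22 °C, Chac1 only at 6 h and Nupr1 only at 24 h. The call of Chac1 was lost in 7 of 10 fits that left out 1 library. Mthfd2, Atf5 and Slc3a2, which have a window and no match in it, rose in iWAT. The absence of these letters from a window says nothing of the binding of a factor.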

How the data were processed

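Bulk polyA RNA libraries of 2 mouse fat depots were made with a NEBNext Ultra II kit, per the labels. Per the submitters' processing notes, HISAT2, HTSeq and GRCm39 were used, and versions and strand setting are not given in the sources used here. The authors deposited raw counts per gene and FPKM (counts scaled by gene length and library total) per gene. Counts were tested in R 4.3.3 with edgeR 4.0.16 (filterByExpr with a minimum count of 10, TMM, quasi-likelihood, Benjamini-Hochberg over all genes). Each tissue was fitted with its 3 groups together, and tissues were compared with all 30 libraries in the model. On simulated data with 200 changed genes, 72% of log2 changes of 1 were recovered in iWAT at 24 h over 13689 genes and 73% in BAT over 13090 genes. False calls were 4 of 167 in iWAT and 12 of 174 in BAT. Far more genes were called in the real comparisons, and most member changes were under 1, a size not simulated. These shares therefore do not carry over to the members. No pair of the 60 within groups was a repeat (chi-square per degree of freedom 14.6 to 191). Alternatives used DESeq2 1.42.0, limma 3.58.1 on log2 FPKM with pseudocounts of 1 and 0.1, other scaling and filters, and a replicate block. Further alternatives were other sample sets, leaving out each library, and marker covariates chosen after seeing the data. The covariates were run within each tissue only. Members and lists were chosen with earlier results of these data known. Values in every library are given for up to 5 called members with the largest change in each cold comparison and for Atf4, Ddit3, Trib3, Asns and Mthfd2. From each further list, up to 3 called genes of largest change per comparison could be named. Promoter windows came from RefSeq (GRCm38.p6), used for sequence only.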

Additional observations from a re-analysis of the deposited data

Results flagged for a closer look

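Single libraries stood apart from the other 4 of their group for 18 of 216 combinations of member and group, by a gap over 0.71 of the group's range, where chance gives about 1 in 20. In iWAT at 22 °C these were Ddit4 in replicate 5 (49.6 CPM, others 19.1 to 23.8), Trib3 in replicate 3 (2.89 CPM, others 3.40 to 3.54) and Slc7a1 in replicate 4 (3.15 CPM, others 5.94 to 6.42). In iWAT at 6 h they were Trib3 in replicate 5 (5.75 CPM, others 3.98 to 4.35), Stc2 in replicate 3 (25.6 CPM, others 9.25 to 13.5) and Eif4ebp1 in replicate 1 (195.4 CPM, others 101.9 to 122.7). In iWAT at 24 h replicate 5 was high for Phgdh (146.3 CPM, others 99.6 to 106.5) and Shmt2 (11.9 CPM, others 8.41 to 8.88).

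In BAT at 22 °C, replicate 1 was high for Atf5 (150.5 CPM, others 108.9 to 120.4) and Ppp1r15a (17.0 CPM, others 9.56 to 11.3), and replicate 4 for Stc2 (1.97 CPM, others 0.411 to 0.817). Replicate 5 of that group, which had the most muscle transcripts, was high for Ddit4 (32.8 CPM, others 11.9 to 17.8) and Gars1 (215.2 CPM, others 197.0 to 201.3) and low for Aars1 (75.5 CPM, others 91.0 to 92.9). In BAT at 6 h, Ddit4 was high in replicate 1 (47.7 CPM, others 20.01 to 24.5) and Chac1 in replicate 2 (1.65 CPM, others 0.310 to 0.692). In BAT at 24 h, Wars1 was high in replicate 4 (190.7 CPM, others 54.0 to 67.3) and Aldh1l2 in replicate 2 (0.233 CPM, others 0.0308 to 0.0792).

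The cold response differed between tissues by an interaction term in edgeR for 7 members at 6 h and 10 at 24 h. At 6 h the log2 differences, BAT minus iWAT, were 0.46 for Eif2ak3, -0.90 for Eif4ebp1, -0.83 for Asns, -0.87 for Psph, -0.42 for Aars1, -0.51 for Gars1 and -0.57 for Mars1. At 24 h they were -0.76 for Atf5, 0.44 for Eif2ak3, -1.15 for Sesn2, -0.86 for Asns, -1.63 for Mthfd2, -4.66 for Slc7a11, -0.49 for Aars1, -0.48 for Cars1, -0.72 for Gars1 and -0.41 for Mars1.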

How the results depend on the processing

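Over 105 called differences of members, 1 changed choice at a time kept direction and call in 1979 of 2313 refits, kept only the direction in 316 and reversed in 18. All 18 reversals were in BAT against iWAT at 22 °C on FPKM, with pseudocounts of 1 and 0.1: Atf4 -0.01 and -0.01, Ddit3 -0.07 and -0.08, Cebpg -0.37 and -0.38, Eif2ak3 -0.18 and -0.23, Ppp1r15a -0.01 and -0.01, Mars1 -0.04 and -0.04, Nars1 -0.34 and -0.35, Sars1 -0.36 and -0.38, and Yars1 -0.02 and -0.02. The median of all genes moved with them. Upper-quartile scaling left 10 higher and 8 lower there. Of the counts of called members, that of iWAT at 6 h (15) was 8 on FPKM with either pseudocount and 0 with the stromal covariate. That of iWAT at 24 h (20) was 5 with the stromal covariate, and that of iWAT 24 h against 6 h (0) was 1 with DESeq2. In BAT, the count at 24 h (14) was 9 with the skeletal muscle covariate and 8 with the stromal covariate, and that of 24 h against 6 h (3) was 0 with the stromal covariate. The difference between tissues at 24 h (10) was 6 on FPKM with a pseudocount of 0.1. The shares of all genes called under these settings are not given here.

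Leaving out 1 library gave 9 to 19 called members in iWAT at 6 h (9 when replicate 1 at 22 °C, or replicate 4 or 5 at 6 h, was left out), 19 to 23 at 24 h and 0 to 1 between the times (1 without 6 h replicate 4). In BAT it gave 11 to 12, 7 to 14 and 0 to 4, the last with 0 without 6 h replicate 4. It gave 22 to 23 between tissues at 22 °C, 5 to 8 for the response at 6 h and 8 to 11 at 24 h.

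Whether equal replicate numbers mark the same mouse is not stated. Deviations of same-numbered libraries correlated between -0.534 and 0.458 over all pairs of groups. Between iWAT and BAT of one condition they ran from -0.534 to 0.342, and at 24 h from 0.082 to 0.342. Libraries of unequal number were not compared, so these values cannot decide whether the samples are paired. With the replicate block, 16 and 21 members were called in iWAT and 13 and 13 in BAT at 6 h and 24 h, 0 and 2 between the times, 23 between tissues at 22 °C, and 7 and 10 for the responses. Between 6 h and 24 h in BAT the 2 called under the block both fell, and both rises lost the call (Trib3 0.96, adjusted p = 0.0533, and Chac1 2.05, adjusted p = 0.0877). The block also ended the calls of Trib3 at 24 h (adjusted p = 0.0672) and Chac1 at 6 h (adjusted p = 0.0847) in BAT and of Eif2ak3 at 6 h in iWAT (adjusted p = 0.0652). Low counts limit Slc7a11, Aldh1l2 and, in BAT, Stc2.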
